A study of Mus musculus with 6 samples.

Results

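Ica1l, Rgs2, St6galnac5, Irak3 and Nts are 5 genes with higher array values in the skin of Hoxc13 mutant mice than in wild type skin. They were chosen by that difference, as genes outside skeletal muscle that read higher in the mutant, so their differences are given as a description and are not tested. They are 5 of 15644 named genes, on a table of 16331 probe sets, and each had a single probe set. Dissected skin gave the RNA for 6 Affymetrix arrays, 3 of wild type and 3 of the targeted allele Hoxc13tm1Mrc, which the labels call a knockout. All 6 are labelled as male C57BL/6 skin with 5 dpn in the titles, and the design text describes the samples of each group as independent. The labels give neither the number of mutant copies per animal nor the litters. In RNA of whole skin, more cells of a type and more RNA per cell cannot be told apart.

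The homeobox factor HOXC13 acts in hair follicles and is best known for its control of hair keratin genes. The 5 genes belong to different branches of cell signalling. Rgs2 encodes a regulator of G protein signalling that limits signals of the Gq class and is well known from vascular smooth muscle. Irak3 encodes IRAK-M, an inhibitory member of the IRAK kinase family that dampens Toll-like and interleukin-1 receptor signalling and is best known from monocytes and macrophages. Nts encodes the precursor of the peptides neurotensin and neuromedin N, made by neurons and by endocrine cells of the gut. St6galnac5 encodes a sialyltransferase that adds sialic acid to gangliosides, mostly known from brain. Ica1l encodes a BAR domain protein related to islet cell autoantigen 1.

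The 3 upstream windows shown here are those of the genes with the largest difference (Ica1l), the highest place within the arrays (Rgs2) and the lowest (Nts). Each is the 250 bases before the gene start in RefSeq on GRCm38.p6, 5′ to 3′ on the gene's minus strand. The windows lie at chr1:60043123-60043372, chr1:144004150-144004399 and chr10:102490419-102490668. Capitals mark CGTCA on either strand, the short core of the cyclic AMP response element, and in Nts also TGANTCA, the AP-1 site.
Ica1l: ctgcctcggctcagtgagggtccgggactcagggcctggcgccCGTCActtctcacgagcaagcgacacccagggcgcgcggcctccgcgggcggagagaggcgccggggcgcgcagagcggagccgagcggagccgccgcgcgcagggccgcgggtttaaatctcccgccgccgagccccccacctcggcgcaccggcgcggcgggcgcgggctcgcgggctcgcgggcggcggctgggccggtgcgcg
Rgs2: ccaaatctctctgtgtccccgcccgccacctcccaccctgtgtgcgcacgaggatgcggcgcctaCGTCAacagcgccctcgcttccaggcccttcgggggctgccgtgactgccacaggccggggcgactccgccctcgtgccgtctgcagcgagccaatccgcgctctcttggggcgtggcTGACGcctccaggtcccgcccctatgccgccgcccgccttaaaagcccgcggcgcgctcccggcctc
Nts: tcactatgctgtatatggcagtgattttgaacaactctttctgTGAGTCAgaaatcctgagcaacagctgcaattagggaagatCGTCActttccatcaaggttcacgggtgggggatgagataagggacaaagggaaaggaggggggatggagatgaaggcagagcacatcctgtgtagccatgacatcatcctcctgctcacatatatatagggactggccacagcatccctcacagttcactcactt

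The windows of Ica1l and Rgs2 were both rich in G and C, and that of Nts was not. That of Ica1l had 80.4% G and C with 45 CG pairs, and that of Rgs2 had 72.4% with 30 pairs. Of the 2 windows listed for Irak3, one had 66.4% with 19 pairs and the other 47.6% with 6. That of Nts had 48% with 2 pairs. The median over 32851 windows was 52.4% with 6 pairs. The Nts window carried 2 overlapping TATATA runs, 45 and 43 bases before the start, and TATATA was in 5.25% of all windows. TATAAA, the TATA box, was in none of these 5 windows and in 12.4% of all. CGTCA was found once in the Ica1l window, 2 times in that of Rgs2 and once in that of Nts, and in 17.8% of all windows. It was in neither window of Irak3, and St6galnac5 was not in the promoter table. TGANTCA was found in the Nts window alone among these genes and in 6.75% of all windows. TTTAT, a core that HOX proteins of the posterior groups can bind, was found 2 times in 1 of the Irak3 windows and in no other of these windows, and in 37.3% of all. TCGTAAA, a site described for HOXC13, was in none of these 5 windows and in 0.478% of all. The motifs were picked with these sequences in view, and both strands were searched. A match is a description of letters, and no match says only that these letters are not in this window.

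The arrays were nearly identical in distribution, with a median of 7.405 each, since the authors' normalisation sets them alike. Mutant replicate 3 stood apart, correlating at 0.989 and 0.990 with the other mutant arrays, which correlated at 0.997 with each other. Probe sets are not independent replicates. Hoxc13 itself averaged 9.75 ± 0.11 in the wild type and 9.15 ± 0.52 in the mutant (SD, n = 3 each), with mutant replicate 3 at 9.74. The place of its probes relative to the disrupted part was not stated, and its level is therefore no check of the labels. The hair keratins do separate the groups on every array. The mean of 6 of them, the hair shaft list below, was 12.63 to 13.03 on the wild type arrays. It was 6.01, 6.16 and 5.52 on mutant replicates 1, 2 and 3, so replicate 3 read as a mutant array there. Xist read 11.15 to 11.67 on all 6 arrays and the Y-linked gene Uty 3.43 to 3.59, which goes against the label male in both groups alike. The skin label was borne out by the keratins Krt5 (12.77 to 13.27), Krt14 (12.51 to 13.05) and Krt10 (13.80 to 14.13).

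The limma fit over all probe sets called 78 higher in mutant skin, 0.478% of those tested, and 261 lower, or 1.6%. These counts depend on single arrays. Without mutant replicate 3 they were 1298 and 1018, and without any other single array 9 to 23 and 134 to 156. All 5 genes were among the 78, and nothing is read from that, because the same contrast chose them. In 12.5% of all probe sets every mutant value lay above every wild type value, as in all 5 of these genes.

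Ica1l showed the largest difference of the 5. It read 5.28, 5.53 and 5.47 in wild type replicates 1, 2 and 3 and 6.64, 6.61 and 6.57 in the mutant replicates, as log2 values. The 3 mutant values lay within a narrow band, well clear of the wild type values. The means were 5.43 ± 0.13 and 6.61 ± 0.04 (SD, n = 3 each). The difference was 1.18 (SE 0.08), a 2.26-fold higher array value.

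Rgs2 had the highest place within the arrays and the most even values among mutants. Wild type replicates read 9.37, 9.19 and 9.47, and mutant replicates 10.31, 10.29 and 10.28. The mutant SD was 0.01 against 0.14 in wild type (n = 3 each). The difference was 0.95 (SE 0.09), or 1.93-fold.

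St6galnac5 varied more among mutants. Its values were 5.25, 5.46 and 5.31 in wild type and 6.56, 6.07 and 6.16 in mutant skin, with mutant replicate 1 the highest. The means were 5.34 ± 0.11 and 6.26 ± 0.26 (SD, n = 3 each), a difference of 0.93 (SE 0.13). Its groups were 0.62 apart at their nearest values.

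Irak3 read 7.07, 7.28 and 7.19 in wild type and 8.13, 8.09 and 7.88 in mutant skin. Mutant replicate 3 was the lowest mutant array but still 0.61 above the highest wild type value. The means were 7.18 ± 0.11 and 8.03 ± 0.13 (SD, n = 3 each), with a difference of 0.86 (SE 0.09), or 1.81-fold.

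Nts had the smallest difference and the lowest place within the arrays. It read 4.79, 4.76 and 5.05 in wild type and 5.86, 5.80 and 5.42 in mutant skin. The groups were separated by only 0.37, because mutant replicate 3 lay 0.41 below the mean of the other mutant arrays. The means were 4.87 ± 0.16 and 5.70 ± 0.24 (SD, n = 3 each), a difference of 0.83 (SE 0.14).

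**Figure D1:**
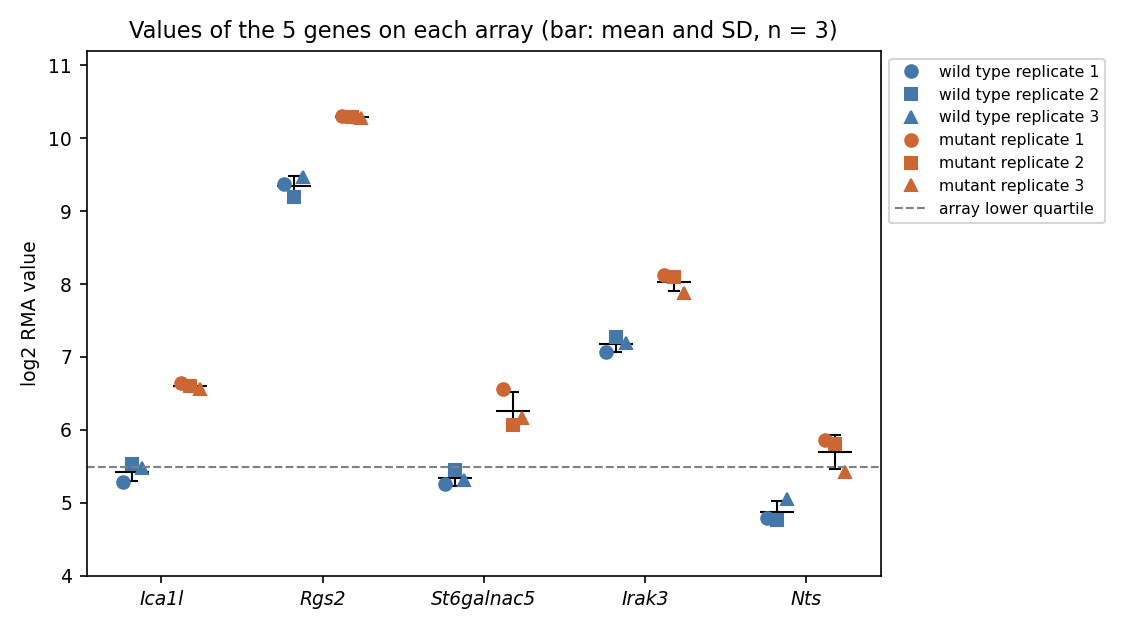
Log2 array values of the 5 genes on each of the 6 arrays, wild type in blue and mutant in orange, with the mean and SD of each group (n = 3) and the lower quartile of the arrays as a dashed line. The mutant values of every gene lie above its wild type values, and the wild type means of Ica1l, St6galnac5 and Nts lie below the dashed line.

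Leaving out mutant replicate 3, the array that stood apart, did not lower any of the 5 differences. Without it they were 1.20 for Ica1l, 0.96 for Rgs2, 0.98 for St6galnac5, 0.93 for Irak3 and 0.96 for Nts. The array mattered most for Nts, where the difference went from 0.83 to 0.96.

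Only Rgs2 and Irak3 were clearly above the low end of the arrays in wild type skin. The lower quartile, used here as a reference for low signal, was 5.485 on each wild type array and nearly the same on the mutant arrays. In wild type skin Rgs2 lay on average 3.86 above it and Irak3 1.69 above it. Rgs2 stood at percentiles 79.8 to 83.5 of the wild type arrays and at 91.8 to 92.1 of the mutant arrays. Irak3 moved from percentiles 44.8 to 48.1 to percentiles 57.7 to 62.0.

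The other 3 genes read at or under this reference in wild type skin. Ica1l was 0.06 below it on average, St6galnac5 0.15 below and Nts 0.62 below. In mutant skin they lay 1.12, 0.78 and 0.21 above it. Nts in mutant replicate 3 was at percentile 24.4, still below the quartile, and no mutant value of Nts was above percentile 29.3. No detection calls were used here, so wild type skin is not shown to express these 3 genes, and their differences can understate the true ratio. Levels of different genes come from different probes and are placed within arrays only.

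By size alone these are not the largest differences of the series. A further 59 named genes had larger differences than Nts, 6 of them on the skeletal muscle list, but the test called only 2 of the 59. The largest differences outside the 5 genes and the muscle list were those of Myl2 (1.79, adjusted p = 0.335), Sln (1.62, adjusted p = 0.282), Pdk4 (1.58, adjusted p = 0.0723), Apobec2 (1.40, adjusted p = 0.254) and Adssl1 (1.33, adjusted p = 0.199). Myl2 and Sln encode muscle proteins that the list left out, and the mutant values of Myl2 ran from 3.89 to 7.27. The list is therefore incomplete, and other genes outside it can be muscle genes too. Among the 75 named genes called higher, ordered by difference, the 5 genes took places 2, 4, 5, 6 and 7. The fast myosin gene Myh2 (1.23, SE 0.19) and the homeobox gene Dlx1 (1.05, SE 0.15) held places 1 and 3. The gene just outside was Lmod2, a leiomodin of striated muscle, at 0.81, against 0.83 for Nts just inside. The median difference of the 75 was 0.53.

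Families and pathways of the 5 genes were examined through 182 other measured genes on 9 lists. The test called 1 of them higher and 4 lower, or 0.549% and 2.20%, near the 0.478% and 1.6% of all probe sets. Their median difference was 0.01, against 0.02 over all probe sets. The lower calls were not spread over the lists. All 4 were on the sialic acid list (2 of 25) and the glycosphingolipid list (2 of 14). With mutant replicate 3 left out, 15 of the 182 were higher and 13 lower, at a background of 7.95% and 6.23%. Counts at an unadjusted p under 0.05 are given below without their share over all probe sets. Nothing is read from those counts.

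Other RGS genes had small differences. None of 18 other RGS genes was called by limma, with 2 at an unadjusted p under 0.05 and a median difference of -0.02. Rgs5, a pericyte marker, read 9.49 ± 0.28 and 9.37 ± 0.17 (SD, n = 3 each), a difference of -0.12 (adjusted p = 0.773). Rgs4 was at -0.03, Rgs16 at -0.13 and Rgs1 at -0.22, with adjusted p = 0.949, 0.432 and 0.56. The smallest p on the list was that of Rgs7 (-0.19, adjusted p = 0.269). Omitting mutant replicate 3, 2 of the 18 were higher.

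The Gq signalling list held G protein subunits, phospholipases, receptors and other genes of the signalling that RGS2 limits. This list had 0 of 20 genes called and 1 at an unadjusted p under 0.05. Its median was 0.02. The thrombin receptor gene F2r had the smallest p, with a difference of 0.31 (SE 0.09, adjusted p = 0.159). Omitting mutant replicate 3, 4 of the 20 were higher and 1 lower.

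The receptor pathway of Irak3 also had small differences. None of 35 other genes of the IRAK, Toll-like and interleukin-1 receptor list was called, 2 had an unadjusted p under 0.05, and the differences ran from -0.19 to 0.26. Irak1, an activating kinase of the family, was at 0.08 (SE 0.10, adjusted p = 0.778) and Irak2 at -0.02 (SE 0.10, adjusted p = 0.959). Irak4 had no probe set named here. The ubiquitin ligase gene Peli2 had the smallest p (0.24, adjusted p = 0.292). None of these genes was called without mutant replicate 3 either.

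Of 20 NF-kB response genes, targets induced downstream of these receptors, Icam1 rose and the other 19 did not pass. Icam1, a leukocyte adhesion molecule, went from 7.34 ± 0.07 to 7.77 ± 0.05 (SD, n = 3 each). The change was 0.43 (SE 0.07, adjusted p = 0.0281). Leaving out any 1 of the arrays ended the call, except for mutant replicate 3 (0.40 to 0.47). The list median was 0.09, and 4 genes had an unadjusted p under 0.05. Relb had a larger difference than Icam1, 0.69 (SE 0.14), and just missed the threshold (adjusted p = 0.0542). Without mutant replicate 3, 3 of the 20 were higher, where 7.95% of all probe sets were. They were Icam1, Relb (0.64) and Ptgs2 (0.48), the last below the lower quartile on every array.

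Calls in the glycan pathways of St6galnac5 were decreases. Of 25 other sialyltransferase and sialic acid genes 2 fell and none rose, with a median of -0.01. Over all probe sets 1.6% were lower. Omitting mutant replicate 3, 4 of the 25 were lower and 1 higher, where 6.23% and 7.95% of all probe sets were. Neu2, a sialidase that removes sialic acid, went from 7.20 ± 0.10 to 5.54 ± 0.34 (SD, n = 3 each). It fell by 1.66 (SE 0.16, adjusted p = 0.00186), and the call held without any single array (-1.85 to -1.56). St3gal1, a sialyltransferase of O-linked glycans, fell by 0.52 (SE 0.09, adjusted p = 0.0406), and the call ended without any 1 of the other 5 arrays than mutant replicate 3 (-0.59 to -0.44). The relatives St6galnac3 and St6galnac6 were at -0.07 and 0.13, with adjusted p = 0.795 and 0.485.

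Of 14 enzymes that build or degrade the glycosphingolipid core, 2 fell and none rose, where 1.6% of all probe sets were lower. B3gnt5, which starts the lacto series, went from 5.79 ± 0.35 to 4.67 ± 0.21 (SD, n = 3 each), a fall of 1.12 (SE 0.18, adjusted p = 0.0263) to a level under the lower quartile. Leaving out wild type replicate 3 or either of mutant replicates 1 and 2 ended the call (-1.25 to -0.92 over all single omissions). Gla, the lysosomal alpha-galactosidase, fell by 0.54 (SE 0.08, adjusted p = 0.0203), and behaved as St3gal1 did when arrays were left out (-0.59 to -0.47). Omitting mutant replicate 3, 5 of the 14 were lower, where 6.23% of all probe sets were.

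The receptors of neurotensin were low in both groups. Ntsr1 read 4.99 ± 0.10 and 4.83 ± 0.08, and Ntsr2 5.37 ± 0.02 and 5.34 ± 0.03 (SD, n = 3 each), below the lower quartile on every array. Sort1, the sorting receptor sortilin that also binds neurotensin, was at -0.19 (SE 0.09, adjusted p = 0.404). Among 12 measured receptor and peptide processing genes none was called, with 3 at an unadjusted p under 0.05. The smallest p was that of carboxypeptidase E (Cpe), at 0.30 (SE 0.07, adjusted p = 0.0853). None of 20 other neuropeptide precursor genes was called, with 4 at an unadjusted p under 0.05. Nppc had the smallest p, at -0.93 (adjusted p = 0.0888). With mutant replicate 3 left out, 2 of the first list were higher. They were Scg3 at 1.02 (adjusted p = 0.000837) and Cpe at 0.32 (adjusted p = 0.0218). Of the second list 1 was higher, Penk at 1.08 (adjusted p = 0.000112). There 3 were lower, Nppc, Npy and Gal (-1.17, -0.43 and -0.35). In that fit 7.95% of all probe sets were higher and 6.23% lower. With all arrays Scg3 and Penk were both at 0.75 (adjusted p = 0.172 and 0.233).

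Ica1, the closest relative of Ica1l, read 6.43 ± 0.05 and 6.63 ± 0.29 (SD, n = 3 each), a difference of 0.20 (adjusted p = 0.556). It was 0.37 (adjusted p = 0.0156) with mutant replicate 3 left out. None of the 18 measured relatives and partners of the BAR domain list was called with all arrays, with 1 at an unadjusted p under 0.05 (Amph, -0.25, adjusted p = 0.247). With mutant replicate 3 left out, 2 were higher. Fitted without variance moderation, limma called 0 genes on all 9 lists.

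**Figure D2:**
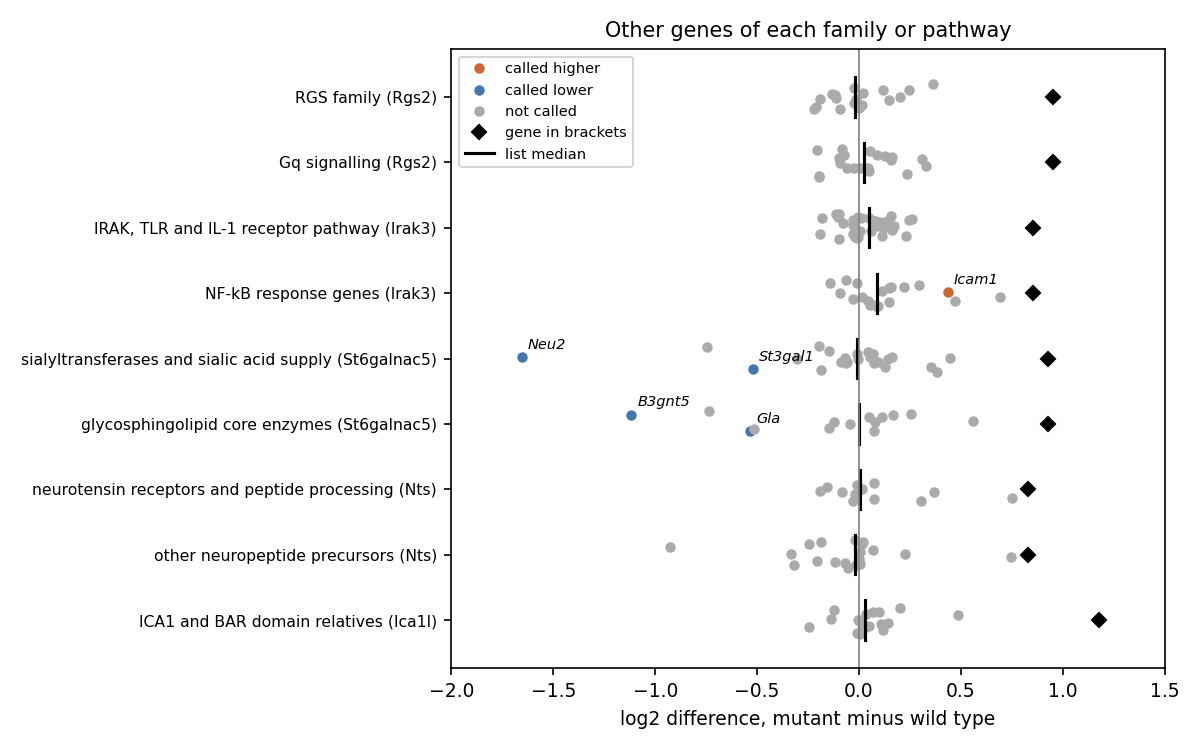
Log2 differences, mutant minus wild type, of the other measured genes on 9 lists (points; orange called higher, blue called lower, grey not called), with the list median as a bar and the gene named in brackets as a black diamond. Each diamond lies to the right of all points of its list, and the called points are Icam1, Neu2, St3gal1, B3gnt5 and Gla. The genes in brackets were chosen for their differences, so nothing is read from the place of the diamonds.

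Genes beside the 5 on their chromosomes were examined next. Ica1l and Rgs2 lie on chromosome 1, St6galnac5 on 3, and Irak3 and Nts on 10, by RefSeq gene order on GRCm38.p6. Of 50 neighbours, 5 measured genes on each side of each gene, limma called none higher and 1 lower, with 8 at an unadjusted p under 0.05 and a median of 0.05. Called neighbours numbered 10 without mutant replicate 3, where 7.95% of all probe sets were higher and 6.23% lower. They numbered 0 without wild type replicate 3. Rgs13, Rgs1 and Rgs18, next to Rgs2, were at 0.20, -0.22 and 0.36, with adjusted p = 0.585, 0.56 and 0.438. With mutant replicate 3 left out, Rgs13 was at 0.36 (adjusted p = 0.0377) and Rgs18 at 0.58 (adjusted p = 0.017). Rgs13 and Rgs1 read below the lower quartile on every array. St6galnac3, next to St6galnac5, was named above. The called neighbour was Kitl, 4 places from Nts, which encodes the ligand of the receptor KIT that pigment cells and mast cells need. It fell from 8.76 to 8.11, by 0.65 (SE 0.08, adjusted p = 0.00689). Without wild type replicate 3 it was at -0.64 and just missed the threshold (adjusted p = 0.0503). B3galt2, 4 places from Rgs2 and named after its value was seen, was at 0.70 (SE 0.30, adjusted p = 0.352).

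**Figure D3:**
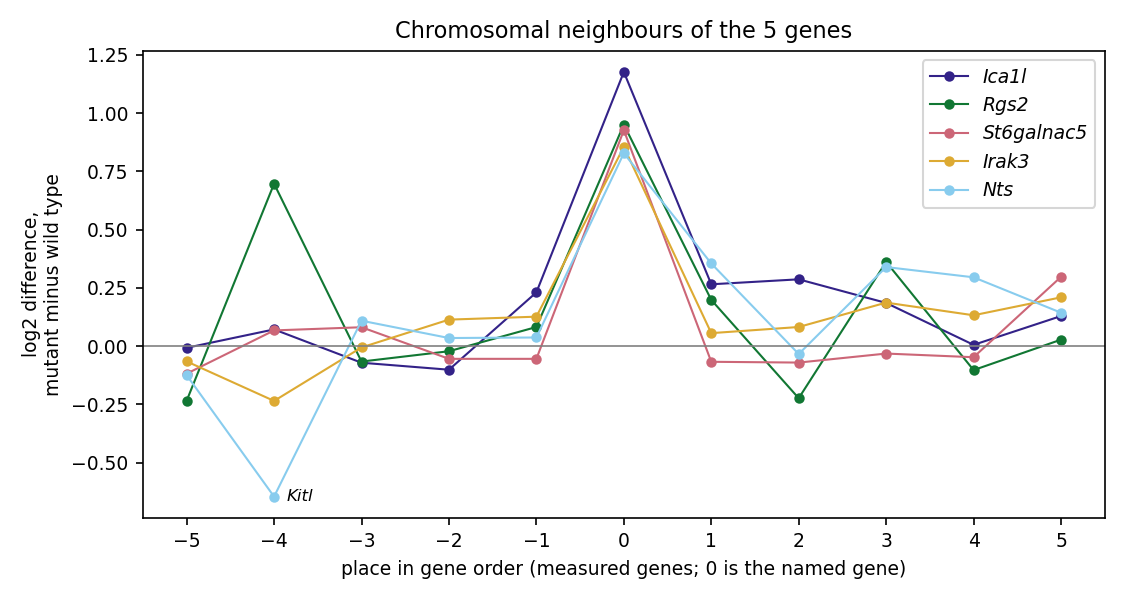
Log2 differences, mutant minus wild type, of each of the 5 genes (place 0) and of the 5 measured genes on either side in gene order. The 5 genes lie between 0.83 and 1.18, above all of their neighbours, and Kitl at -0.65 is the called neighbour. The 5 genes were chosen for their differences, so nothing is read from their place above the neighbours.

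Marker lists describe the RNA of cell type markers in the skin samples, and do not separate cell number from RNA per cell. The hair shaft list, made up of hair keratin genes, fell in all 6 measured genes, with a median of -6.98. Of 160 measured genes on 19 other cell type lists the test called 1 higher, Myh2, and 2 lower, the involucrin gene Ivl (-0.74) and the tubulin gene Tubb3 (-1.31). These are 0.625% and 1.25%, against 0.478% and 1.6% of all probe sets. Without mutant replicate 3, 42 were higher and 19 lower. These are 26.25% and 11.9%, against 7.95% and 6.23% of all probe sets in that fit. The means of several lists moved with the 5 genes in mutant replicates 1 and 2, and less or not in mutant replicate 3.

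For smooth muscle and pericytes, the cells in which Rgs2 is best known, the mean of 10 of 10 markers was 8.31 to 8.49 in wild type and 8.53 to 8.65 in mutant skin. Acta2 and Tagln were its highest markers, with differences of 0.19 and 0.39 (adjusted p = 0.34 and 0.0527). The list median was 0.21, against 0.95 for Rgs2. Its part in the Rgs2 difference was not tested.

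For macrophages and monocytes, the cells in which Irak3 is best known, the mean of 11 of 12 listed markers was 7.87 to 7.89 in wild type skin. It was 8.13 and 8.41 in mutant replicates 1 and 2 and 7.93 in replicate 3. Lyz2 and Mrc1, its highest markers, were at 0.20 and 0.29 (adjusted p = 0.464 and 0.49). No macrophage marker was called with all arrays, none had an unadjusted p under 0.05, and 5 of 11 were higher without mutant replicate 3. The part of these cells in the Irak3 difference was not tested. The mean of 9 neutrophil markers was 6.14 to 6.40 in wild type and 5.82 to 6.16 in mutant skin, with S100a8 and Camp at -1.23 and -0.79 (adjusted p = 0.158 and 0.137).

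For neurons, 7 of 9 markers lay below the lower quartile on all arrays, and the list mean was 4.40 to 4.47 in wild type and 4.30 to 4.32 in mutant skin. Tubb3 and Elavl3 were its highest markers. Tubb3 fell by 1.31 (adjusted p = 0.000919), and Elavl3 was at 0.07 (adjusted p = 0.757). The median difference of the list was 0.00, with 5 of 9 above 0. For Merkel and neuroendocrine cells 4 of 8 markers lay below the quartile on all arrays. That list read 5.46 to 5.59 in wild type and 5.21 to 5.44 in mutant skin, with Krt18 at -0.82 and Piezo2 at -0.19 (adjusted p = 0.195 and 0.541). The part of these cells in the differences of Nts and St6galnac5 was not tested.

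Lymphatic endothelium, dermal papilla and mast cell lists were higher in mutant replicates 1 and 2. The mean of 6 lymphatic markers was 7.11 to 7.15 in wild type, 7.65 and 7.76 in mutant replicates 1 and 2, and 7.10 in mutant replicate 3. The dermal papilla mean was 7.61 to 7.69 in wild type, 8.25 and 8.16 in those mutant arrays and 7.63 in replicate 3. The mast cell mean was 7.62 to 7.83, then 8.11, 8.34 and 7.88. The markers named here are those with the highest array values, not the largest differences. Lyve1 and Pdpn of the first list were at 0.68 and 0.15 (adjusted p = 0.421 and 0.47). Vcan and Sox18 of the second were at 0.29 and 0.51 (adjusted p = 0.382 and 0.333), and Cpa3 and Cma1 of the third at 0.55 and 0.67 (adjusted p = 0.331 and 0.289). With that array left out, 4 of 6 lymphatic, 7 of 9 dermal papilla and 5 of 8 mast cell markers were called higher, and 1 dermal papilla marker lower. In that fit 7.95% of all probe sets were higher and 6.23% lower. The part of these cells in the differences of the 5 genes was not tested.

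Skeletal muscle, with 22 of 24 markers measured, had a list mean of 9.32 to 10.42 in wild type and 9.95 to 11.01 in mutant skin, so the groups overlapped. Its median difference of 0.74 was the highest of the cell type lists, with 20 of 22 markers above 0. With all arrays 1 was called higher, and 9 had an unadjusted p under 0.05. Without mutant replicate 3, 9 were called higher, where 7.95% of all probe sets were. Tnnc2 and Acta1 were at 0.79 and 0.43 (adjusted p = 0.268 and 0.381). Over the 6 arrays the correlation with the skeletal muscle mean was 0.63 for Ica1l, 0.49 for Rgs2, 0.75 for St6galnac5, 0.70 for Irak3 and 0.60 for Nts. These points share the group difference. Taken within groups, as deviations from the group means, it was -0.66 for Rgs2, 0.18 for Nts, 0.44 for Ica1l, 0.73 for St6galnac5 and 0.74 for Irak3. Its part in their differences was not tested.

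The lists of Schwann cells (4 of 7 markers measured) and of keratinocytes had these values. The Schwann mean was 6.41 to 6.77 in wild type and 6.96 to 7.10 in mutant skin, with Mbp at 0.78 (adjusted p = 0.177) and Sox10 at 0.00 (adjusted p = 0.993). Basal keratinocytes read 10.84 to 11.02 and 11.02 to 11.32, the outer root sheath and companion layer 10.16 to 10.18 and 10.23 to 10.59, and suprabasal keratinocytes 12.68 to 12.71 and 12.55 to 12.77. In the first 2 of these keratinocyte lists mutant replicate 3 was the highest array. Blood vessel endothelium read 7.65 to 7.91 in wild type and 7.67 to 7.96 in mutant skin, dermal fibroblasts 11.71 to 11.92 and 11.78 to 12.04, and fat cells 10.61 to 10.85 and 10.36 to 11.06. T cells and dendritic cells read 7.30 to 7.46 and 7.01 to 7.72, melanocytes 10.81 to 11.01 and 10.21 to 10.84, and the sebaceous gland 11.48 to 11.56 and 10.72 to 11.63.

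**Figure D4:**
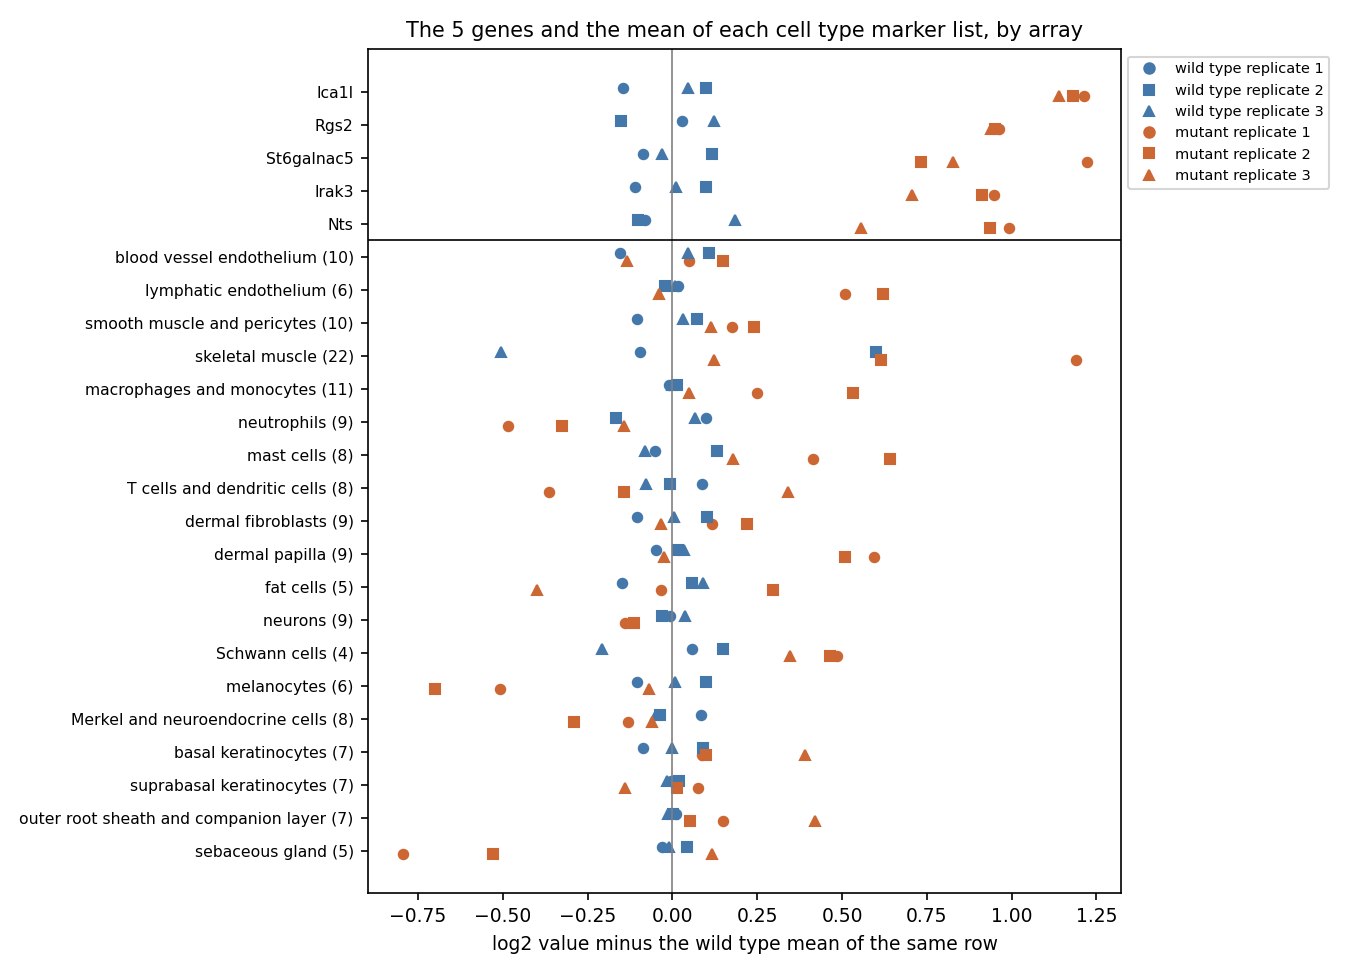
Log2 values of the 5 genes (above the line) and means of 19 cell type marker lists (below; measured markers in brackets) on each array, minus the wild type mean of the same row, wild type in blue and mutant in orange. Among the lists, mutant replicate 3 (orange triangles) lies near 0 for lymphatic endothelium, dermal papilla and macrophages, and mutant replicates 1 and 2 lie higher. The 5 genes were chosen for their position to the right. The hair shaft list, with its median of -6.98, is not drawn.

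The 5 genes followed each other closely over the 6 arrays, with correlations from 0.91 to 0.99, which the shared group difference fixes in large part. Within groups the correlations of their deviations ran from -0.34 (Ica1l with Rgs2) to 0.80 (Ica1l with Irak3), over 6 arrays.

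Many other genes were as close. Each of the 5 had 136 to 197 named genes correlated with it above 0.95 over the 6 arrays, so the nearest are given as description only. Nearest to Ica1l were C1qtnf12, Prss12 and Naxd (0.998, 0.996 and 0.995), and nearest to Irak3 were Prss12, Wdhd1 and Gm13181 (0.996, 0.995 and 0.993). Prss12 encodes the serine protease neurotrypsin and was near both. Nearest to Rgs2 were Man2c1, Ddit3 and Golga5 (0.999, 0.994 and 0.993). Ddit3, which encodes the stress-induced factor CHOP, had a difference of 0.39 (adjusted p = 0.0342). Nearest to St6galnac5 were Klhl24, Tmem121 and Sptbn1 (0.996, 0.993 and 0.990), and to Nts Tmem41a, Ppil6 and Zfp87 (0.997, 0.996 and 0.994).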

How the data were processed

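Dissected skin of 6 mice was profiled on Affymetrix arrays after oligo(dT)-primed one-cycle labelling, per the labels' protocols. The authors deposited log2 values made with RMA, per the submitters' processing notes, which background-corrects, quantile-normalises and summarises probes. The aligning of distributions hides changes in total RNA, and differences near background are compressed. Array intensity has no read depth, so the number of arrays limits the precision.

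Of 16395 probe sets, 64 controls were left out. The array annotation named 15644 of the remaining 16331. Groups came from the titles. limma 3.58.1 in R 4.3.3 (lmFit, eBayes, two-sided, no block, prior degrees of freedom 3.53) was fitted to the whole table, with Benjamini-Hochberg adjustment over 16331 probe sets and a threshold of 0.05. Each p-value reflects only how much these samples vary within groups. On simulated data the fit was tested at 200 changed probe sets.

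The members and lists were chosen with earlier results of these data known. Named were the 5 genes, fixed close relatives, up to 4 called genes per list or else the gene with the smallest p, called neighbours, the 5 next largest differences, the 3 genes most alike and the 2 highest markers of the cell lists described. Scg3, Penk, Npy, Gal, Relb and Ptgs2 were named after their values were seen. Lists left out the 5 genes. Upstream windows came from RefSeq (GRCm38.p6) for 4 of the 5 genes. Figures were drawn with matplotlib 3.10.9 in Python 3.11.15. The alternatives tried were leaving out low probe sets, repeating the quantile normalisation, centring the arrays, an intensity trend and robust prior, weighting the arrays, blocking on replicate number, fitting without variance moderation and omitting single arrays.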

Additional observations from a re-analysis of the deposited data

How the results depend on the processing

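Every mutant value of the 5 genes lay above every wild type value, so omitting or weighting arrays could not reverse their differences. Only the sizes of these differences are therefore described. They ranged from 1.10 to 1.23 for Ica1l, 0.88 to 1.01 for Rgs2, 0.78 to 1.02 for St6galnac5, 0.80 to 0.93 for Irak3 and 0.75 to 0.96 for Nts. Nts was not fitted where low probe sets were left out. Against the 10th percentile of the arrays in place of the lower quartile, the wild type means lay 1.22, 5.14, 1.13, 2.97 and 0.66 above the reference, in the order Ica1l, Rgs2, St6galnac5, Irak3 and Nts.

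Counts of calls depended on the arrays. With array weights 1041 probe sets were higher and 839 lower, without variance moderation 18 and 66. Leaving out single arrays gave 9 to 1298 higher and 134 to 1018 lower. On the lists of related genes the counts were 13 higher and 10 lower with array weights, 0 and 0 without moderation, and 0 to 15 higher and 1 to 13 lower without single arrays. Called neighbours numbered 8 with array weights, 0 without moderation and 0 to 10 without single arrays. The weight of mutant replicate 3 was 0.234, against 1.23 to 1.44 for the others. The cause was not tested.

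Replicate numbers did not pair the samples: same-numbered arrays had deviations correlated at 0.04, -0.12 and -0.09. With the replicate number as a replicate block, 22 probe sets were higher and 175 lower, with 0 higher and 2 lower on the lists of related genes and 1 neighbour called. Of the genes named there, Icam1, Gla and St3gal1 lost their calls under the block.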
